A study of Mus musculus with 6 samples.

Results

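The dystrophin glycoprotein complex was examined through 8 genes: dystrophin (*Dmd*), its homologue utrophin (*Utrn*), dystroglycan (*Dag1*), the sarcoglycans *Sgca*, *Sgcb* and *Sgcd*, α-dystrobrevin (*Dtna*) and sarcospan (*Sspn*). They were found by their gene names in the tables of the single libraries and joined by gene identifier to the count table, which gave 8 of the 55421 genes listed. RNA-seq was performed on day 4 of differentiation in myoblasts modelling myotonic dystrophy type 1 (DM1). All 6 libraries came from C2C12, a mouse myoblast line, that had been stably transfected with a GFP plasmid carrying 200 CUG repeats and selected with G418. The control (3 libraries) additionally carried the empty vector and the overexpressing group (3 libraries) the same vector with miR-322 and miR-503, each under puromycin selection and in low-serum medium with insulin. Because each group was a single stable line, effects of the microRNAs and differences that arose between the lines cannot be told apart. The study's methods give biological triplicates for its assays in general, the labels do not say how these 3 libraries were obtained, and p-values measure the spread between these libraries. Bulk RNA also cannot tell fewer differentiated cells from less RNA per cell.

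The complex links the actin cytoskeleton of the muscle fiber to the basal lamina. Dystrophin, or utrophin in its place, binds actin inside the cell and β-dystroglycan at the membrane, α-dystroglycan binds laminin outside through its sugar chains, and the sarcoglycans and sarcospan brace dystroglycan in the membrane. Dystrobrevins and syntrophins attach to dystrophin and anchor signaling proteins. Loss of dystrophin causes Duchenne muscular dystrophy, and loss of α-, β- or δ-sarcoglycan causes limb-girdle muscular dystrophy.

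The overexpressed microRNAs are shown because their seeds define the target matches counted in the 3′UTRs further on. The mature sequences were taken from RefSeq (GRCm38.p6, minus strand, chrX:53054306-53054327 and chrX:53054027-53054049), with the seed (bases 2 to 8) in capitals. The seeds differed in their last base.
miR-322-5p: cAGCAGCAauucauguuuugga
miR-503-5p: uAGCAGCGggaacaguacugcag
The genes of these microRNAs were at 0 to 17 estimated counts (*Mir322*) and 1 to 6 (*Mir503*) in the 6 libraries, too few to check the overexpression in this kind of library.

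Total estimated counts ranged from 73532084 to 92157388 per library, and about 4 estimated counts stood for 1 read pair. The normalisation factors of edgeR (TMM) lay between 0.977 and 1.03. Of the 18140 genes tested, 13.2% were higher and 15.5% lower in the overexpressing group (edgeR's quasi-likelihood test, Benjamini-Hochberg adjusted p under 0.05), and 4.59% and 5.29% also passed a log2 fold change of 1 or -1. The groups did not overlap for 21.6% of genes with higher and 23.5% with lower values, and the median log2 fold change of all genes was -0.01. On chromosome 9 the median was -0.27 over 1014 genes. Medians on some other chromosomes also lay away from 0. They were -0.19 on chromosome 4, 0.17 on chromosome 5, 0.15 on chromosome 13 and 0.14 on chromosome 19. Of 12 myogenic markers 7 were higher and 1, *Myog*, was lower, and their summed TPM was 3487 to 3847 in control libraries and 4292 to 4471 in overexpressing libraries. Of 6 fibroblast markers 4 were tested, 1 was higher and 3 were lower, and their summed TPM was 438 to 459 against 357 to 378, with *Tcf21* at 0. Adipocyte markers (5, of which 4 were at 0 in every library, among them *Adipoq*) were not tested. The 8 immune and endothelial markers summed to 3.28 to 5.76 against 5.81 to 6.51 TPM, with *Tie1* and *Adgre1* at 0, and neither of the 2 tested was called. Of 7 Schwann and neuronal markers, *Tubb3* was higher and *Sox10* and *Rbfox3* were at 0 in every library, with sums of 49.7 to 53.8 against 98.7 to 120 TPM. The part of these shifts in the results was not tested.

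All 8 complex genes passed the filter on low counts. *Dtna* rose, *Sgca* and *Sgcd* fell, and the other 5 did not pass the test. Thus 1 of 8 was higher, beside 13.2% of all genes, and 2 of 8 were lower, beside 15.5%. *Sgcd* was the only one of the 8 past a log2 fold change of -1 (1 of 8 beside 5.29%), and none passed 1 (beside 4.59%). The libraries of the groups did not overlap for *Utrn*, *Sgcb* and *Dtna* with higher values (3 of 8 beside 21.6%) and for *Sgca* and *Sgcd* with lower values (2 of 8 beside 23.5%). The median log2 fold change of the 8 genes was 0.04, beside -0.01 for all genes. The shares for the 8 genes rest on 1 to 3 genes each.

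Levels per length (TPM) differed widely between members. In the control, *Dag1* led with 183.5 ± 24.9 TPM (mean ± SD, n = 3), followed by *Sgca* with 78.9 ± 7.85, *Sgcb* with 69.4 ± 4.16, *Sgcd* with 59.8 ± 4.87, *Utrn* with 37.8 ± 1.09, *Dtna* with 28.3 ± 0.501, *Sspn* with 27.8 ± 0.788 and *Dmd* with 0.0424 ± 0.0416. The neighbours *Sgca* and *Sgcb*, and *Dtna* and *Sspn*, overlapped between libraries. In the overexpressing group the order was *Dag1* (153.3 ± 43.0 TPM), *Sgcb* (78.8 ± 1.92), *Sgca* (48.3 ± 4.76), *Utrn* (38.5 ± 2.17), *Dtna* (36.8 ± 1.89), *Sspn* (27.8 ± 1.86), *Sgcd* (25.9 ± 0.641) and *Dmd* (0.0419 ± 0.0108). There *Utrn* and *Dtna* overlapped and no other neighbours did. *Sgcd* thus stood 4th in the control and 7th in the overexpressing group.

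**Figure D1:**
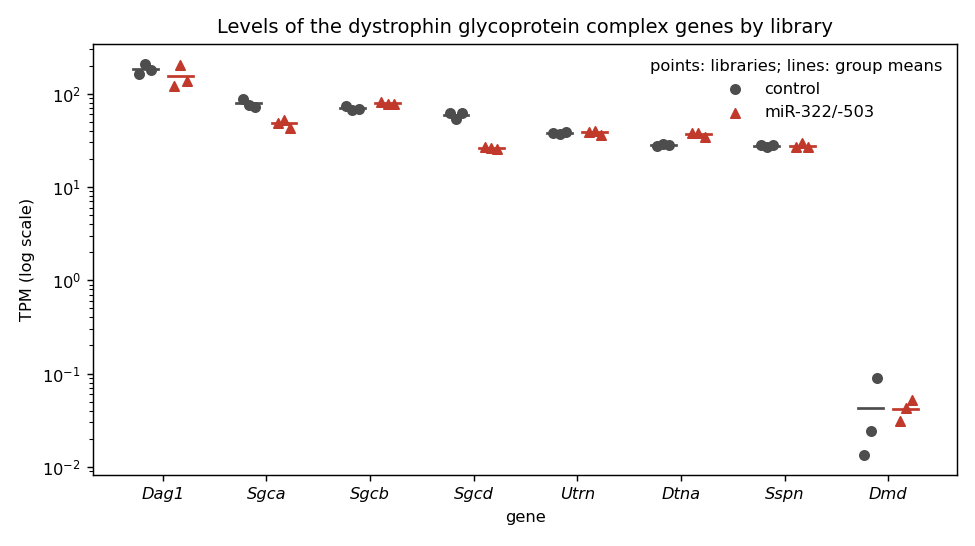
TPM (log scale) of the 8 complex genes in each library, with points for libraries and lines for the group means of 3 libraries. *Sgca* and *Sgcd* were lower and *Dtna* higher in the overexpressing group, and *Dmd* lay below 0.1 TPM in every library.

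*Dmd* encodes dystrophin, the rod-shaped protein between actin and the membrane, and was close to absent from these libraries. It lies on chrX:82948870-85206141 (GRCm38, plus strand, ENSMUSG00000045103). Its estimated counts were 8, 16 and 49 in the control libraries and 23, 18 and 33 in the overexpressing libraries, or about 2, 4 and 12.25 read pairs against 5.75, 4.5 and 8.25. The values of the groups overlapped, and only control replicate 1 was under 3 read pairs (12 estimated counts). The levels were 0.0133, 0.0239 and 0.0900 TPM against 0.0308, 0.0424 and 0.0524 TPM. The log2 fold change was 0.06 (SE 0.67, adjusted p = 0.962, edgeR's quasi-likelihood test), so a difference was not detectable at this depth. Without control replicate 3, the highest library, it was 1.03, and without control replicate 1, 2 or overexpressing replicate 3 it turned to -0.34, -0.17 and -0.28, none past the test (lowest adjusted p 0.291). On each side only protein-coding genes of at least 1 TPM were considered, so those named were expressed by rule. Any gene below this level was passed over. *Tmem47*, the nearest protein-coding gene of at least 1 TPM before the start of *Dmd* (1.85 Mb away), was at 19.6 ± 1.64 TPM in the control and 12.4 ± 3.77 in the overexpressing group. *Tab3*, the nearest after its end (0.368 Mb away), was at 4.02 ± 0.297 and 5.79 ± 1.06 TPM. Both passed the test, *Tmem47* lower (log2 fold change -0.66, adjusted p = 0.0468, edgeR) and *Tab3* higher (0.53, adjusted p = 0.0151, edgeR). These neighbours were looked up after the values of *Dmd* had been seen.

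The start of the *Dmd* gene in the deposited tables (base 82948870) coincided with 1 of 2 starts given by RefSeq. The promoter at that start is printed because the gene was nearly silent although myogenic markers were expressed, and the E-box CANNTG (searched on both strands, being its own reverse complement), the element that myogenic factors such as MyoD bind, is in capitals (chrX:82948620-82948919, plus strand, RefSeq, GRCm38.p6).
Dmd: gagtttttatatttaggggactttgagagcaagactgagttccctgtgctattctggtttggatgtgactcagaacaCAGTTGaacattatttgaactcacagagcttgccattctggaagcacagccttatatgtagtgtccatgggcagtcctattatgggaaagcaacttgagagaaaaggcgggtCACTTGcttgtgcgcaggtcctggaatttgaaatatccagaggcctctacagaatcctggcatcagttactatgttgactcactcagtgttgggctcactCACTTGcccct
The window held 3 CANNTG and no CAGCTG, a narrower form of the E-box, among 300 bases with a GC content of 45.7%. CANNTG was found in 72.3% of the 32851 mouse promoters of the same length and CAGCTG in 16.3%, so matches of the first kind are common. The second start (chrX:85048045-85048344) held none of either.

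*Utrn* encodes utrophin, which takes the place of dystrophin in immature and regenerating muscle and at the neuromuscular junction. It was at 219.3, 218.3 and 229.8 CPM in the control and 230.1, 239.6 and 233.5 CPM in the overexpressing group. All 3 overexpressing libraries were above the control libraries, by a narrow margin. Its log2 fold change was 0.08 (SE 0.06, adjusted p = 0.363), which did not pass the test. In TPM the libraries overlapped, with 36.6 to 38.7 in the control and 36.1 to 40.2. *Utrn* lies on chromosome 10 (12382188 to 12869365, minus strand, ENSMUSG00000019820), where the median log2 fold change was 0.00. The ratio of *Utrn* to *Dmd* in TPM was 2860, 1529 and 430.4 in the control and 1272, 948.0 and 687.8 in the overexpressing group, so the utrophin transcript exceeded the dystrophin transcript at least 430.4-fold in each library.

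By pattern over the 6 libraries (Euclidean distance of centred log2 CPM among 13596 genes of at least 1 CPM), the genes nearest to *Utrn* were *Brcc3* (0.0270), *Ankrd11* (0.0390) and *Taf1* (0.0418). Those nearest to *Dmd* were *Cetn4* (0.844), *Gm5643* (0.857) and *Gm14681* (0.868), which are far in comparison. *Dmd* itself averaged 0.29 CPM in the control and 0.31 CPM in the overexpressing group, below the limit of 1 CPM. Genes at its own level were thus not searched. The distances are descriptions over 6 libraries of 2 groups.

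*Dag1*, which encodes both dystroglycan subunits, was the most abundant of the 8 genes and varied most between replicates among those above 1 TPM. Its values were 368.8, 489.6 and 419.0 CPM in the control and 270.3, 466.1 and 326.2 CPM in the overexpressing group. The groups overlapped, because overexpressing replicate 2 lay between the control libraries while replicates 1 and 3 lay below all of them. *Dag1* had a log2 difference of -0.27 (SE 0.20, adjusted p = 0.374), not past the test. It was -0.51 (adjusted p = 0.0457, past the test) without overexpressing replicate 2, -0.10 without overexpressing replicate 1 and -0.16 without control replicate 2. *Dag1* lies on chromosome 9 (108204634 to 108263958, minus strand, ENSMUSG00000039952), and its difference equalled the median of that chromosome to the 2nd decimal (-0.27, with 76.3% of 1014 genes below 0). The part of the chromosome in the value was not tested.

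The sarcoglycans differed among themselves. *Sgcd* (δ-sarcoglycan) and *Sgca* (α-sarcoglycan) fell and *Sgcb* (β-sarcoglycan), which forms the core of the sarcoglycan complex with δ-sarcoglycan, was not called in either direction. *Sgcd* was at 52.8, 46.4 and 53.5 CPM in the control and at 22.3, 21.9 and 22.8 CPM in the overexpressing group. The groups were far apart and the overexpressing libraries nearly equal. This was a 2.28-fold lower level (log2 fold change -1.19, SE 0.08, adjusted p = 3.96e-05, edgeR). Leaving out each library in turn gave -1.25 to -1.15. *Sgca* was at 65.2, 56.5 and 55.5 CPM in the control and at 36.2, 40.1 and 35.1 CPM in the overexpressing group. Here too every control library was above every overexpressing library. *Sgca* was 1.59-fold lower (log2 fold change -0.67, SE 0.09, adjusted p = 0.00113, edgeR), with -0.73 to -0.59 when each library was left out. Both genes lie on chromosome 11 (*Sgcd* 46896253 to 47988969 and *Sgca* 94962791 to 94976327, minus strand, ENSMUSG00000020354 and ENSMUSG00000001508), where the median was -0.01 over 1352 genes.

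*Sgcb* was at 145.8, 132.7 and 135.1 CPM in the control and at 159.1, 151.5 and 163.2 CPM in the overexpressing group. All 3 overexpressing libraries were above the control. The log2 fold change was 0.20 (SE 0.06) and its adjusted p of 0.0507 (edgeR) just missed the threshold. It passed in 6 of the other processings (adjusted p 0.0350 to 0.0442), which brings the number of complex genes that were higher from 1 to 2. *Sgcb* lies on chromosome 5 (73632749 to 73647790, minus strand, ENSMUSG00000029156), where the median log2 fold change was 0.17 over 1182 genes, and the part of the chromosome was not tested.

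The promoters of *Sgcd* and *Sgca* are printed because these were the members that fell, with CANNTG in capitals (chr11:47379276-47379575 and chr11:94976278-94976577, both minus strand, RefSeq, GRCm38.p6).
Sgcd: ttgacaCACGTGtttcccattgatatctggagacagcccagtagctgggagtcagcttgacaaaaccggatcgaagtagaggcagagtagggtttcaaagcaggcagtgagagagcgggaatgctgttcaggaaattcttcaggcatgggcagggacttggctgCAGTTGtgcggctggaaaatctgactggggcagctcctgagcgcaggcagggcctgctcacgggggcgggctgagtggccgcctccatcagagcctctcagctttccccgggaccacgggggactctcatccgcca
Sgca: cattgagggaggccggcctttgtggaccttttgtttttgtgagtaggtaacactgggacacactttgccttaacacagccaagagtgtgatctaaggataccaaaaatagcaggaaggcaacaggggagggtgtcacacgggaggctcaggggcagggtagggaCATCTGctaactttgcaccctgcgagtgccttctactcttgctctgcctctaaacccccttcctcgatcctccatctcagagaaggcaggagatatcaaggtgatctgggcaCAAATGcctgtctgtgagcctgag
Each window held 2 CANNTG and no CAGCTG, beside 72.3% and 16.3% of all promoters with at least 1. The GC content was 59.0% and 52.7%. RefSeq's start of *Sgcd* lies inside the gene as the deposited tables delimit it (end 47988969), so other transcripts of *Sgcd* start further away.

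*Dtna* encodes α-dystrobrevin, which binds dystrophin and syntrophins at the cytoplasmic face of the complex. It was at 69.2, 78.2 and 69.4 CPM in the control and at 92.7, 95.4 and 91.3 CPM in the overexpressing group. The groups were clearly apart. *Dtna* was 1.29-fold higher (log2 fold change 0.37, SE 0.06, adjusted p = 0.0049, edgeR), and 0.33 to 0.42 when each library was left out. *Dtna* (ENSMUSG00000024302) shares 90 exonic bases with *Gm47898* on the opposite strand, which had 9 to 24 estimated counts. *Sspn*, whose product sarcospan has several membrane spans and binds the sarcoglycans, was at 65.1, 63.0 and 66.1 CPM in the control and at 61.5, 69.1 and 65.9 CPM in the overexpressing group. The overexpressing libraries enclosed the control libraries. The log2 fold change was 0.02 (SE 0.06, adjusted p = 0.872). *Sspn* (chromosome 6, 145931641 to 145965223, plus strand, ENSMUSG00000030255) shares 69 exonic bases with *Sspnos* on the opposite strand, which had 2 to 15 estimated counts. Whether the counting used strand is not given in the sources used here.

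**Figure D2:**
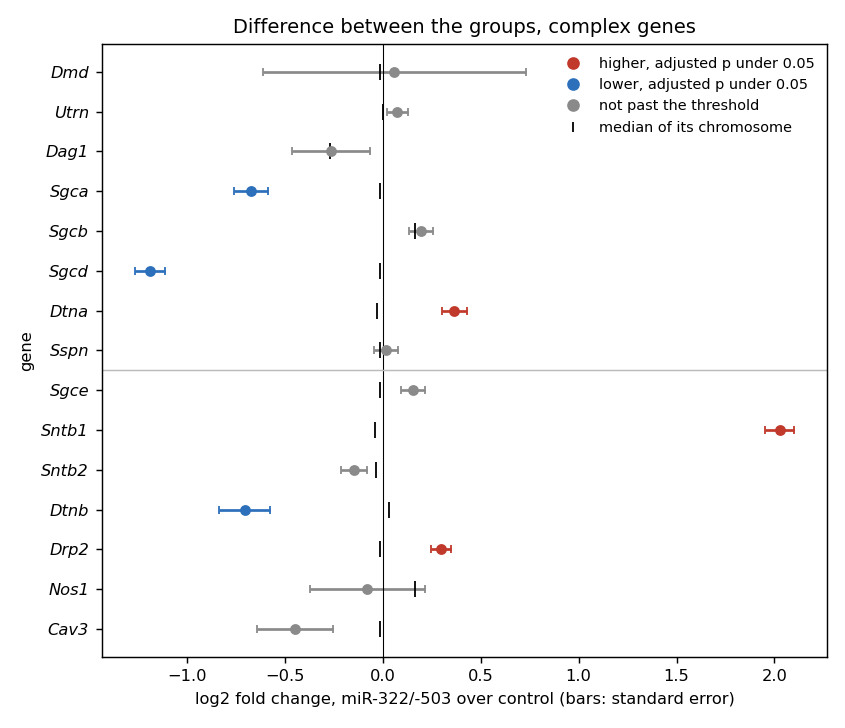
Log2 fold change of the 8 complex genes (above the line) and of 7 other components of the complex (below it), overexpressing over control, with bars for the standard error and ticks for the median of all tested genes on the same chromosome. *Sgcd* (-1.19) and *Sgca* (-0.67) lay far below their chromosome's tick, *Dag1* (-0.27) lay on it, and *Sntb1* (2.03) was the farthest to the right.

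Of 12 other components of the complex, 9 were tested, and 2 were higher and 2 lower, beside 13.2% and 15.5% of all genes, with a median of -0.15. *Sntb1* (β1-syntrophin), an adaptor that docks on dystrophin and dystrobrevin, was at 12.1, 12.3 and 11.7 CPM in the control and at 47.0, 48.6 and 51.9 CPM in the overexpressing group (log2 fold change 2.03, SE 0.07, adjusted p = 3.52e-06, edgeR). The groups did not overlap. *Sntb2* differed by -0.15 (adjusted p = 0.143), and *Sntg1* and *Sntg2* were at 0 in every library. *Dtnb* (β-dystrobrevin) fell from 7.56 ± 0.925 to 4.64 ± 0.195 CPM (-0.70, SE 0.13, adjusted p = 0.00567). *Drp2* (dystrophin-related protein 2) rose from 63.3 ± 0.818 to 77.9 ± 2.25 CPM (0.30, SE 0.05, adjusted p = 0.00388), but did not pass with limma on log2(TPM + 1) (adjusted p = 0.0738). *Sgce* (ε-sarcoglycan) had 0.16 (adjusted p = 0.0973), which did not pass the test, and *Sgcz* was at 0 in every library. *Nos1*, the nitric oxide synthase that binds syntrophin, had -0.08 (adjusted p = 0.878, 4.52 to 11.1 CPM in the overexpressing libraries), and *Cav3*, the muscle caveolin, had -0.45 (adjusted p = 0.13).

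Homologous genes were set against each other by their ratio in TPM, which is free of the scaling between libraries. With 3 libraries against 3, the two-sided exact permutation test cannot go below p = 0.1, so these ratios cannot pass the threshold. The log2 ratio of *Sgca* to *Sgce*, its more broadly expressed homologue, was 0.46, 0.12 and 0.20 in the control and -0.47, -0.50 and -0.76 in the overexpressing group, a difference of -0.84 (exact permutation p = 0.1, 0.133 adjusted over the 4 ratios computed, of which 3 are given). *Sgca* was thus the more abundant of the pair in every control library and the less abundant in every overexpressing library. For *Dtna* and *Dtnb* the log2 ratio was 2.21, 2.09 and 1.86 in the control and 3.02, 3.16 and 2.91 in the overexpressing group, a difference of 0.98 (exact permutation p = 0.1, adjusted 0.133), so that α-dystrobrevin exceeded β-dystrobrevin 4.15-fold in the control and 8.17-fold in the overexpressing group. In both pairs the groups did not overlap. The log2 ratio of *Utrn* to *Dmd* was 11.48, 10.58 and 8.75 in the control and 10.31, 9.89 and 9.43 in the overexpressing group, a difference of -0.39 within overlapping groups (exact permutation p = 0.6), and it turned to 0.21 without control replicate 1.

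**Figure D3:**
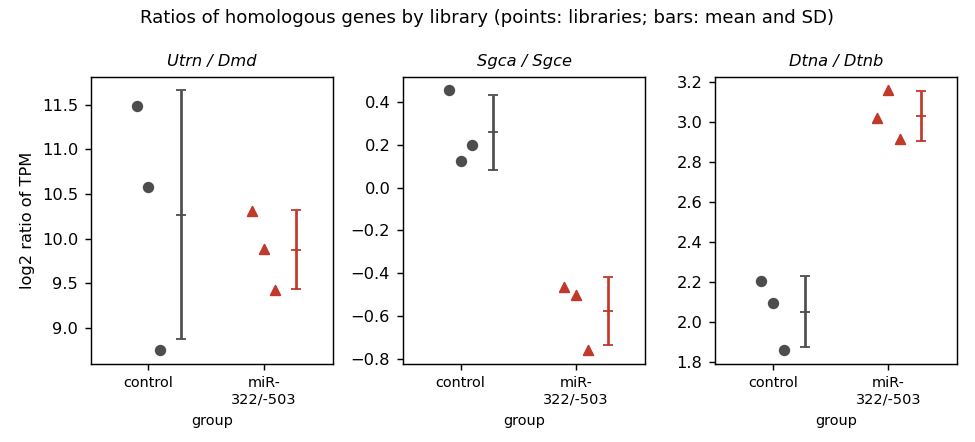
Log2 ratio of TPM for 3 pairs of homologous genes in each library, with points for libraries and bars for mean and SD of 3 libraries (each panel has its own axis). The groups were apart for *Sgca* to *Sgce* and *Dtna* to *Dtnb* and overlapped for *Utrn* to *Dmd*.

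Matches to the seeds were counted in the longest 3′UTR of each member (GENCODE M21, GRCm38). TGCTGCT, the match to the miR-322-5p seed, was found once in *Sgca* (3′UTR of 307 bases), 2 times in *Sgcb* (2746 bases), once in *Dtna* (3934 bases) and once in *Sspn* (3728 bases), and not in *Dmd*, *Utrn*, *Dag1* or *Sgcd*. CGCTGCT, the match to the miR-503-5p seed, was found in none of the 8. Among 13416 tested genes with a 3′UTR of at least 50 bases, 24.4% held TGCTGCT and 4.87% held CGCTGCT. Among genes with a 3′UTR of like length (0.8 to 1.25 times), TGCTGCT was held by 7.44% for *Sgca*, 39.4% for *Sgcb*, 51.3% for *Dtna* and 49.1% for *Sspn*. Of the members with a match, 1 was lower, 1 was higher and 2 were not called, and *Sgcd*, with the largest fall, held no match in this 3′UTR of 1710 bases, where 28.03% of genes of like length did.

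The matches in *Sgca*, *Sgcb* and *Sspn* are printed with the 7 matching bases in capitals, to set beside the seeds given above. The match in *Dtna*, the member that rose, is counted but its sequence is not printed here. They lie on the minus strand for *Sgca* (chr11:94962796-94962818, bases 295 to 301 of the 3′UTR) and *Sgcb* (chr5:73633469-73633491, bases 2019 to 2025, and chr5:73632868-73632890, bases 2620 to 2626) and on the plus strand for *Sspn* (chr6:145961723-145961745, bases 243 to 249), all in GRCm38.
Sgca: aataaaaaaaataccTGCTGCTt
Sgcb, first: agtttgagcatatccTGCTGCTc
Sgcb, second: aggagaccactaaagTGCTGCTc
Sspn: caagtgaagaggactTGCTGCTc
The match in *Sgca* lies near the annotated end of the transcript, since this 3′UTR has 307 bases. A match describes the letters in this window and is not evidence of binding.

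The genes around the complex were described from 4 further lists. Of 18 genes for the glycosylation of dystroglycan, which builds the laminin-binding sugar chain, all were tested, 1 was higher and 4 were lower, beside 13.2% and 15.5% of all genes tested, with a median of -0.15 (all genes -0.01). On leaving out each library, 0 to 1 were higher and 1 to 3 lower, and with limma 0 were higher and 2 lower. *Gmppb*, which makes GDP-mannose, fell from 25.3 ± 1.34 to 13.5 ± 1.57 CPM (-0.91, SE 0.11, adjusted p = 0.000645), and *Pomgnt2*, a glycosyltransferase of the chain, from 6.20 ± 0.580 to 3.99 ± 0.525 CPM (-0.64, adjusted p = 0.0151). Both lie on chromosome 9, whose median was -0.27. *Dpm3*, a subunit of dolichol-phosphate-mannose synthase, fell from 6.35 ± 0.176 to 4.67 ± 0.119 CPM (-0.44, adjusted p = 0.0182), but in TPM its means were 16.8 and 18.3, in the opposite order. The calls of *Pomgnt2* and *Dpm3* were lost without some single libraries. For *Pomgnt2* these were control replicate 2, overexpressing replicate 2 and overexpressing replicate 3 (adjusted p 0.0546, 0.0541 and 0.0551) and for *Dpm3* control replicate 1, control replicate 2 and overexpressing replicate 2 (0.0585, 0.0538 and 0.0591). That of *Gmppb* was kept in every case.

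Of 12 ligands of dystroglycan, 2 were higher (13.2% of all genes) and 5 lower (15.5% of all genes), with a median of -0.02. The number that was higher was 1 on leaving out any library except overexpressing replicate 1, and 1 with limma. Of the 4 laminin α chains on the list, which carry the domains that dystroglycan binds, 1 fell, 2 rose (1 of them, *Lama2*, not in most leave-outs) and 1 did not pass the test. *Lama4* fell from 70.5 ± 5.89 to 17.6 ± 1.05 CPM (4.01-fold lower, adjusted p = 5.77e-06) and *Lama5* rose from 233.0 ± 14.9 to 326.1 ± 32.0 CPM (0.49, adjusted p = 0.00521). *Lama2* rose by 0.19 (adjusted p = 0.0262) and *Lama1* had 1.51 with overlapping groups (adjusted p = 0.139), both named after their values were seen. The call of *Lama2* was the one lost on leaving out any library except overexpressing replicate 1, and its TPM overlapped between the groups (25.7 to 28.4 in control libraries, 25.9 to 30.1 in overexpressing libraries). *Lamb2*, a laminin β chain of the synaptic basal lamina, fell from 218.1 ± 8.84 to 135.2 ± 5.57 CPM (-0.69, adjusted p = 0.000168) and lies on chromosome 9.

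Of 17 genes of the costamere and of the integrin linkage, the other tie between the fiber and its matrix, 16 were tested, 5 were higher and 4 lower, with a median of -0.03, where 13.2% and 15.5% of all genes were called. *Krt19*, a keratin that binds the complex at the costamere, rose from 2.36 to 34.5 CPM (3.87, SE 0.12), and *Synm* (synemin), which binds dystrobrevin and desmin, fell from 14.7 to 2.32 CPM (-2.66, SE 0.16). *Ank2*, an ankyrin, fell from 41.9 to 17.8 CPM (-1.24), and *Actn2* (α-actinin 2) rose from 1.74 to 3.14 CPM (0.86, adjusted p = 0.0137). Of 9 membrane repair genes, 4 were higher and 2 lower (13.2% and 15.5% over all genes), with a median of 0.18. *Dysf* (dysferlin), required for resealing, fell from 72.4 to 40.8 CPM (-0.83, SE 0.06), while *Ano5* (0.56), *Anxa6* (0.55) and *Anxa1* (0.49) rose. *Actn2* lies on chromosome 13 (median 0.15) and *Anxa1* on chromosome 19 (median 0.14), and the part of the chromosomes was not tested. The 4 lists together thus held changes in both directions, as did the 8 complex genes.

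**Figure D4:**
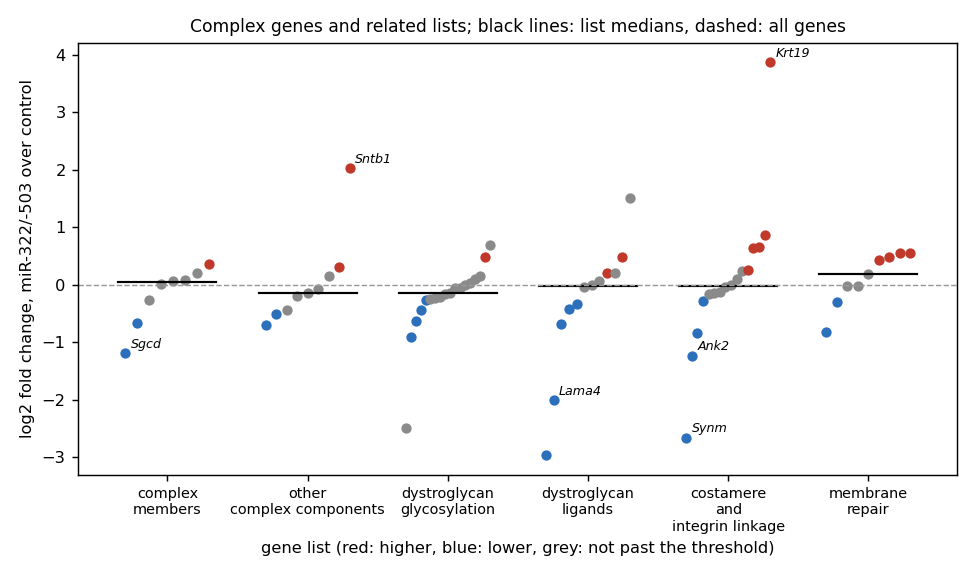
Log2 fold change (overexpressing over control) of each tested gene of the complex and of 5 related lists, with short black lines for list medians, a dashed line for the median of all genes, red and blue points for genes higher and lower at an adjusted p under 0.05 and grey points for the rest. Each list held genes on both sides, and the medians ranged from -0.15 to 0.18.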

How the data were processed

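RNA-seq of 3 control and 3 overexpressing libraries was used. Per the labels, the authors used Trim Galore for trimming, HISAT2 for alignment to GRCm38 and StringTie for quantification; versions and gene annotation are not given in the sources used here. The deposited table holds estimated counts per gene as whole numbers. The deposited table of each library holds coverage (signal per base), FPKM and TPM. Coverage served to find the bases behind an estimated count (about 75), FPKM was not analysed, and TPM of 64 repeated gene rows was summed.

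Estimated counts were tested with edgeR 4.0.16 in R 4.3.3 (filterByExpr, TMM, glmQLFit, glmQLFTest, Benjamini-Hochberg over 18140 genes; adjusted p under 0.05). CPM are scaled by TMM. The standard error is the log2 fold change divided by the square root of F. Because 1 read pair gave about 4 estimated counts, the depth was about 1.84e+07 to 2.30e+07 pairs, and read-pair floors cover counting error only. Ratios were tested by exact permutation. Alternatives were DESeq2 1.42.0, limma 3.58.1 on log2(TPM + 1) and log2(TPM + 0.1), other scalings and filters, counts per read pair, a replicate block and leaving out each library. The computations were tested on simulated data.

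The members and lists were chosen with earlier results of these data known. Named genes are every complex gene, every other component, up to 4 called genes of each other list by size of change, and the 3 genes nearest in pattern to Dmd and Utrn. Of these, 4 genes and a ratio are not reported here, though the list counts include them. RefSeq (GRCm38.p6) and GENCODE M21 (55154 of 55421 identifiers matched) gave the sequences.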

Additional observations from a re-analysis of the deposited data

How the results depend on the processing

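The directions and calls of Sgca, Sgcd and Dtna were the same in every alternative that was run. The number of complex genes that were higher was 2 instead of 1 with DESeq2, RLE size factors, upper-quartile factors, a filter of at least 10 counts in every library, counts per read pair and the replicate block, in each case by Sgcb. The replicate block also brought Dag1 past the test (-0.29, adjusted p = 0.0491). The replicate numbers were not taken to pair the samples, since the deviations of same-numbered libraries correlated with r of 0.131, 0.0687 and 0.0451 over 18140 genes, although each library correlated best with its own number, a hint from the data and not from the design. The blocked ratios of homologous genes kept their direction. With limma on log2(TPM + 1) and on log2(TPM + 0.1), 1 of the other components was higher instead of 2, 0 glycosylation genes were higher instead of 1 and 2 were lower instead of 4, and 1 dystroglycan ligand was higher instead of 2. Leaving out each library gave 1 to 1 complex genes higher and 2 to 3 lower, 0 to 1 glycosylation genes higher and 1 to 3 lower, and 1 to 2 ligands higher and 4 to 5 lower; the ligands were at 1 higher without every library except overexpressing replicate 1. The log2 ratio of Utrn to Dmd ranged from -1.15 to 0.21. Genes that were not called changed sign: Dmd with limma on log2(TPM + 1) (-4.52e-05) and between -0.34 and 1.03 on leaving out libraries, Sspn with limma (-0.0025 and -0.0026) and between -0.0226 and 0.0640, and Nos1 with limma (0.16 and 0.22) and between -0.39 and 0.21. The called gene Dpm3 turned to 0.0822 and 0.0843 with limma. The causes were not tested. Dmd was not tested with the filter of at least 10 counts and with counts per read pair. Of the values of single genes under the alternatives, 457 kept direction and side of the threshold, 13 lost the call, 9 gained it and 13 changed sign. Depth limits Dmd, which had 8 to 49 estimated counts.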
